A study of Gallus gallus with 6 samples.

Results

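The antibody and plasma cell genes described here are IGLL1, JCHAIN, PIGR, XBP1, PRDM1 and IRF4, taken by gene symbol, and all 6 were found among the 15656 genes of the deposited table. They were followed in chickens, in the mucosa of the jejunum, the stretch of small intestine that absorbs most nutrients. The heat-adapted (HA) group consisted of Leuang Hang Kao breeder hens and the heat-sensitive (HS) group of SUT breeder hens, with 3 RNA-seq libraries in each. All hens were 28 weeks old and were kept at 36 °C for 6 h before sampling, so that heat is common to both groups and no unheated hens enter the comparison. Each library was made from RNA of 4 hens pooled, 12 hens per group out of 25 housed. The design text speaks of hens assigned at random to the groups, whereas the sample labels give each group its own breed, so breed and heat group cannot be told apart. The p-values measure the spread between pools, not between single hens.

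Plasma cells are the end stage of B cells and fill the tissue under the gut epithelium, where they make antibody in very large amounts. In the gut most of this antibody is secreted as polymers held together by a joining chain, and it reaches the gut lumen through epithelial cells that carry a receptor for such polymers. IGLL1 is the symbol under which the chicken lambda light chain, the only light chain type of birds, is listed. JCHAIN encodes the joining chain, and PIGR the epithelial receptor. IRF4, PRDM1 and XBP1 are transcription factors: IRF4 and PRDM1 turn B cells into plasma cells and XBP1 builds up the secretory machinery.

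Values are FPKM, fragments scaled to the length of the gene and to the size of the library, so that levels of different genes can be compared per length. A gene was tested when its mean over the 6 libraries was at least 1 FPKM, which held for 11587 genes and for all 6 members. Log2 differences are HA minus HS of log2(FPKM + 1), and adjusted p-values are from limma over all tested genes, with 0.05 as the threshold. The deposited read counts, which sum to between 10829957 and 13070796 per library, stand in another row order than the symbols. For 137 genes, the HS libraries gave a single matching count row, and log2 read count over FPKM varied between genes with an SD of at most 0.00124 in those libraries, relative to the HS mean of each gene. The rows were picked by a match to within 0.004 on the log2 scale in the HS libraries. The small SD there follows from that choice, and how many matches arose by chance was not tested. In the HA columns the SD was 0.71 to 0.938. If the matched rows are right, the HA FPKM and read-count columns differ by more than a factor. Which of them holds the labelled libraries is not known. No member was among the 137 genes, and all results below are those of the FPKM columns. The epithelial markers EPCAM and VIL1 were abundant in every library, EPCAM at 1965 to 2326 FPKM in HA and 1610 to 2200 FPKM in HS libraries. Not all epithelial markers were: ESRP1 was at 1.56 to 2.97 FPKM, and KRT19 at 0.13 FPKM or less. HS replicate 1 held the highest value of 4 of 6 members, 11 of 18 other plasma cell genes, 11 of 18 B cell genes and 11 of 19 T and natural killer cell markers. HS replicate 2 held the highest value of 10 of 10 fibroblast and 8 of 10 endothelium markers, and of the heat shock gene HSPH1. The share of all tested genes that peak in each library is not given, so these and later peak counts have no background beside them.

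IGLL1, the light chain, had the highest mean FPKM of all genes. It was at 15252, 11081 and 18007 FPKM in HA replicates 1 to 3, and at 27131, 24487 and 24672 FPKM in HS replicates 1 to 3. Every HA library lay below every HS library, and the HA libraries were the more scattered. The means were 14780 ± 3487 FPKM in HA and 25430 ± 1476 FPKM in HS libraries (SD, n = 3 each), a ratio of 0.581. The log2 difference was -0.81 (SE 0.24, 95% interval -1.36 to -0.26), which did not pass in limma (adjusted p = 0.164; unadjusted p = 0.00865). IGLL1 ranked 2 in each HA library and 1 in each HS library. It took 1.42% to 2.04% of all FPKM in HA and 2.74% to 3.02% in HS libraries. The sources used here do not say how reads of rearranged light chain transcripts, or of similar genes, were aligned and counted, so the level of IGLL1 is uncertain to that extent.

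JCHAIN, the joining chain, was at 2304, 2147 and 2469 FPKM in HA replicates 1 to 3, against 4278, 3762 and 3336 FPKM in HS replicates 1 to 3. The groups did not overlap here either, and the HA libraries lay close together. The means were 2307 ± 161 FPKM in HA and 3792 ± 471 FPKM in HS libraries (SD, n = 3 each), a ratio of 0.608. The log2 difference was -0.71 (SE 0.18, 95% interval -1.13 to -0.3; limma adjusted p = 0.129, unadjusted p = 0.00373). JCHAIN had the smallest p of the members and ranked 335 by p among all tested genes, IGLL1 612. In bulk tissue, fewer plasma cells and less antibody RNA per plasma cell cannot be told apart.

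**Figure D1:**
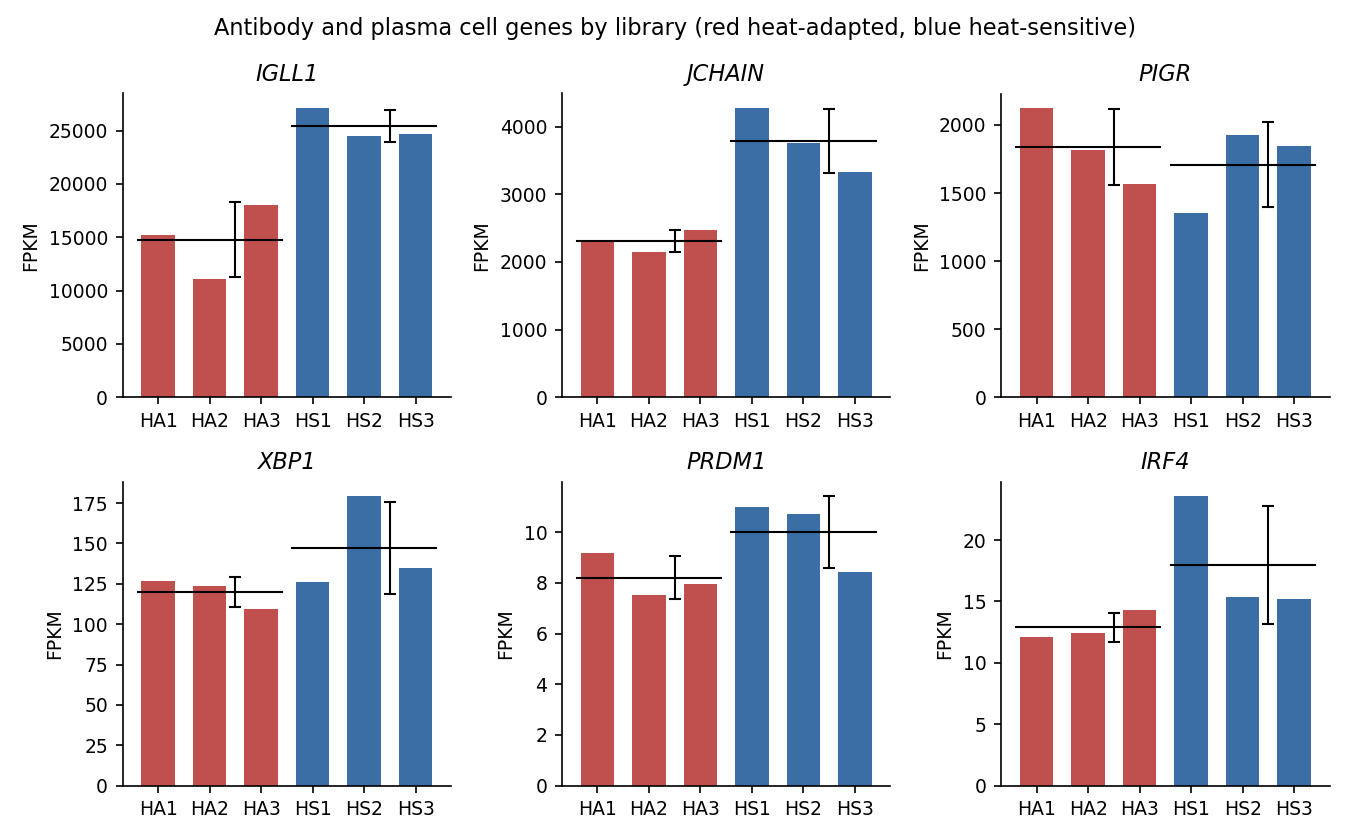
FPKM of the 6 members in each library, with heat-adapted libraries HA1 to HA3 in red and heat-sensitive libraries HS1 to HS3 in blue. Black lines mark the group mean and error bars the SD of 3 libraries. IGLL1 and JCHAIN are lower in every HA library than in any HS library, whereas the groups overlap for PIGR, XBP1 and PRDM1.

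The quotient of joining chain and light chain overlapped between the groups. JCHAIN stood at 0.151, 0.194 and 0.137 of the IGLL1 FPKM in HA replicates 1 to 3, and at 0.158, 0.154 and 0.135 in HS replicates 1 to 3. The mean log2 ratio was -2.65 ± 0.26 in HA and -2.75 ± 0.12 in HS libraries (SD, n = 3 each). The difference of 0.10 had a 2-sided exact permutation p of 0.8, where 3 against 3 libraries allow no p below 0.1. The ratio was highest in HA replicate 2, the library with the lowest IGLL1, and without it the difference was -0.05.

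The transcription factors were expressed far below the antibody genes. IRF4 was at 12.1, 12.4 and 14.3 FPKM in HA replicates 1 to 3, and at 23.6, 15.3 and 15.2 FPKM in HS replicates 1 to 3. The groups did not overlap, but the highest HA value and the lowest HS values lay close together, and HS replicate 1 was far above the rest. The log2 difference was -0.42 (SE 0.19, 95% interval -0.84 to -0.0025), and it was -0.22 without HS replicate 1. It did not pass with all 6 libraries (limma adjusted p = 0.275, unadjusted p = 0.0489).

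PRDM1 was at 9.16, 7.51 and 7.95 FPKM in HA replicates 1 to 3, and at 11.0, 10.7 and 8.42 FPKM in HS replicates 1 to 3. The groups overlapped through HA replicate 1 and HS replicate 3, and the log2 difference of -0.26 (SE 0.16, 95% interval -0.62 to 0.1) did not pass (limma adjusted p = 0.421). XBP1 was at 127, 124 and 109 FPKM in HA replicates 1 to 3, and at 126, 179 and 135 FPKM in HS replicates 1 to 3. Here HS replicate 2 was the highest library, and the groups overlapped. The log2 difference was -0.27 (SE 0.17, 95% interval -0.65 to 0.1; limma adjusted p = 0.418), and it was -0.12 without HS replicate 2. XBP1 acts through a spliced form of its mRNA, and FPKM per gene does not separate the spliced from the unspliced form. XBP1 is also made in epithelial cells, so its level is not that of plasma cells alone. For IRF4 and PRDM1, too, values of bulk mucosa do not show which cells made the RNA.

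PIGR, the epithelial receptor for polymeric antibody, was at 2125, 1814 and 1568 FPKM in HA replicates 1 to 3. It was at 1350.4, 1927 and 1846 FPKM in HS replicates 1 to 3. The groups overlapped over most of their range. The means were 1836 ± 279 FPKM in HA and 1708 ± 312 FPKM in HS libraries (SD, n = 3 each), and the log2 difference was 0.11 (SE 0.21, limma adjusted p = 0.816). Its 95% interval, -0.36 to 0.58, leaves room for a difference in either direction. The sign turned without HS replicate 1, to -0.05, and without HA replicate 1, to -0.00078.

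Set against the joining chain of the same library, the receptor was higher in the HA group. This ratio mostly restates the lower JCHAIN (log2 difference -0.71), as PIGR itself had a log2 difference of 0.11 with overlapping groups. It is therefore no separate result on the receptor. PIGR stood at 0.922, 0.845 and 0.635 of the JCHAIN FPKM in HA replicates 1 to 3, and at 0.316, 0.512 and 0.553 in HS replicates 1 to 3. The groups did not overlap, and the mean log2 ratio was -0.34 ± 0.28 in HA and -1.16 ± 0.44 in HS libraries (SD, n = 3 each). The ratio was 1.77-fold higher in HA libraries, a log2 difference of 0.82 with a 2-sided exact permutation p of 0.1, the smallest this design allows. Without HS replicate 1 the difference was 0.57. Set against the mean log2 level of 19 epithelial markers, PIGR was 7.41, 7.26 and 5.73 times as high in HA replicates 1 to 3. The same ratio was 6.23, 9.27 and 7.23 in HS replicates 1 to 3, and the groups overlapped (log2 difference -0.15, exact permutation p = 0.6). Without HS replicate 2 this difference turned sign, to 0.0098, and without HS replicate 1 it was -0.28. Of the epithelial markers themselves, 15 of 19 tested had a positive log2 difference, as did 4835 of all 11587 tested genes. The median of the 19 was 0.23, against -0.06 over all tested genes. Under 3 of the 17 alternatives this median moved by at least its SD between libraries of a group. VIL1, of the brush border, was at 512 to 667 FPKM in HA and 268 to 455 FPKM in HS libraries (limma adjusted p = 0.176). Of the 4 markers below 0, KRT18 had the largest difference. It was at 90.7 to 135 FPKM in HA and 123 to 192 FPKM in HS libraries (log2 difference -0.48, limma adjusted p = 0.278).

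**Figure D2:**
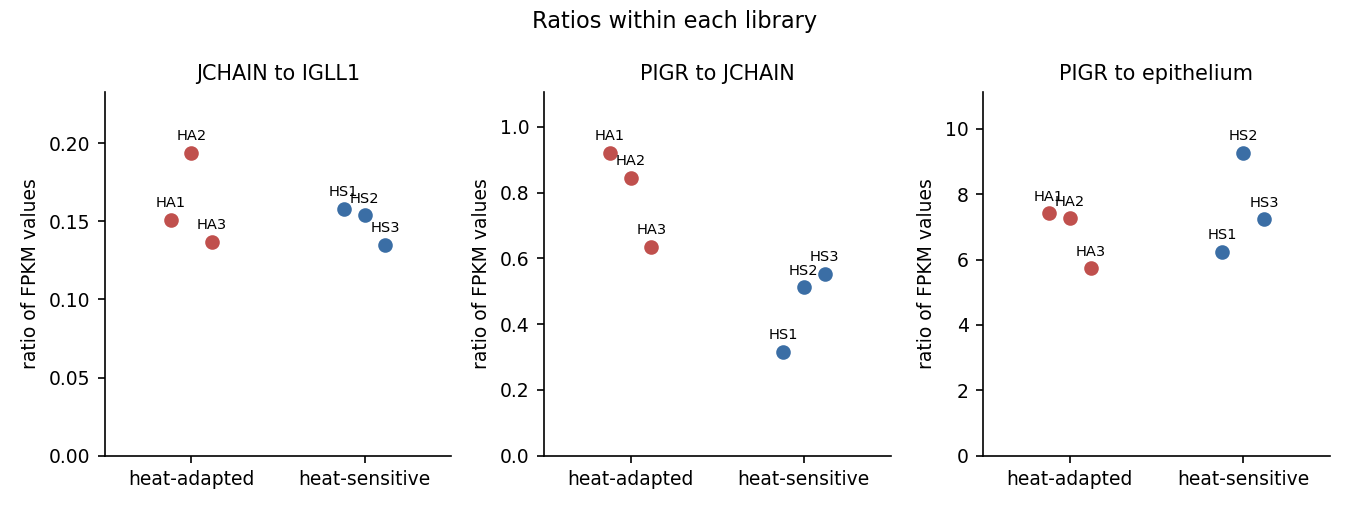
Ratios of FPKM values within each library, one point per library, with HA libraries in red and HS libraries in blue. JCHAIN to IGLL1 overlaps between the groups, PIGR to JCHAIN is at least 0.635 in HA and at most 0.553 in HS libraries, and PIGR to the geometric mean of 19 epithelial markers overlaps.

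None of the 6 members passed the threshold in limma, where 0.0949% of all tested genes did, 0.0345% as lower and 0.0604% as higher in HA libraries. At an unadjusted p below 0.05, 3 of the 6 members (IGLL1, JCHAIN and IRF4) were lower in HA libraries and 0 higher. Of all tested genes, 18.0% were below it in either direction, 10.9% lower and 7.13% higher. IRF4 lay just below that limit (limma unadjusted p = 0.0489). The same 3 members were lower without overlap of the groups. Over all tested genes 21.9% did not overlap, 12.9% as lower and 9.0% as higher in HA libraries. All members but PIGR, 5 of 6, had a log2 difference below 0, as did 58.3% of all tested genes. The same share belongs beside the counts below 0 of each list that follows. Over the 6 libraries, IGLL1 and JCHAIN had a Pearson's r of 0.93 on the log2 scale. JCHAIN had an r of 0.86 with IRF4, 0.82 with PRDM1, 0.52 with XBP1 and -0.46 with PIGR. Among the remaining pairs r ran from -0.81 (PIGR with IRF4) to 0.77 (IGLL1 with IRF4), and XBP1 with IRF4 had 0.08. These correlations describe 6 libraries that also share the group difference.

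Of the plasma cell genes beside the members, 3 were lower in every HA library, 1 was higher in every HA library, and the others overlapped. Over all tested genes, 12.9% were lower and 9.0% higher without overlap. The higher gene, named after its values were seen, was CREB3L2. It was at 23.31 to 32.83 FPKM in HA and 21.28 to 23.27 FPKM in HS libraries (log2 difference 0.25, limma adjusted p = 0.43). Of 25 genes listed, 20 were in the table and 18 were tested. None passed, and 14 of 18 had a log2 difference below 0, as did 58.3% of all tested genes. The median of the 18 was -0.22, or -0.10 with TPM scaling, which moved the median of all tested genes from -0.06 to 0.05. In 11 of the 18 the peak was in HS replicate 1, without which the median was -0.16. At an unadjusted p below 0.05, 4 were lower in HA libraries and 0 higher, against 10.9% lower and 7.13% higher over all tested genes. POU2AF1, a coactivator needed for antibody responses, was at 3.63, 3.56 and 5.59 FPKM in HA replicates 1 to 3, against 17.3, 6.43 and 7.47 FPKM in HS replicates 1 to 3. The groups did not overlap, and the log2 difference was -1.02 (limma adjusted p = 0.187), or -0.61 without HS replicate 1. TXNDC5, a disulfide isomerase abundant in plasma cells, was at 44.5, 44.2 and 60.8 FPKM in HA and 74.1, 62.1 and 69.8 FPKM in HS libraries. It too did not overlap (log2 difference -0.47, limma adjusted p = 0.204).

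CXCR4, the receptor that guides plasma cells to their niches, was at 14.7, 25.9 and 21.5 FPKM in HA and 45.3, 51.7 and 21.3 FPKM in HS libraries, and the groups overlapped (limma adjusted p = 0.259). TRAM2, of protein translocation, was lower without overlap at 2.30 to 2.97 FPKM in HA and 3.15 to 4.45 FPKM in HS libraries (limma adjusted p = 0.273). MZB1, a chaperone of antibody assembly named after its values were seen, was at 17.2, 15.8 and 36.1 FPKM in HA and 60.0, 25.4 and 43.8 FPKM in HS libraries. Those groups overlapped (log2 difference -0.89, limma adjusted p = 0.293). SDC1, a plasma cell surface proteoglycan that epithelium carries as well, overlapped, at 53.9 to 80.2 FPKM in HA and 63.2 to 72.5 FPKM in HS libraries (limma adjusted p = 0.941).

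**Figure D3:**
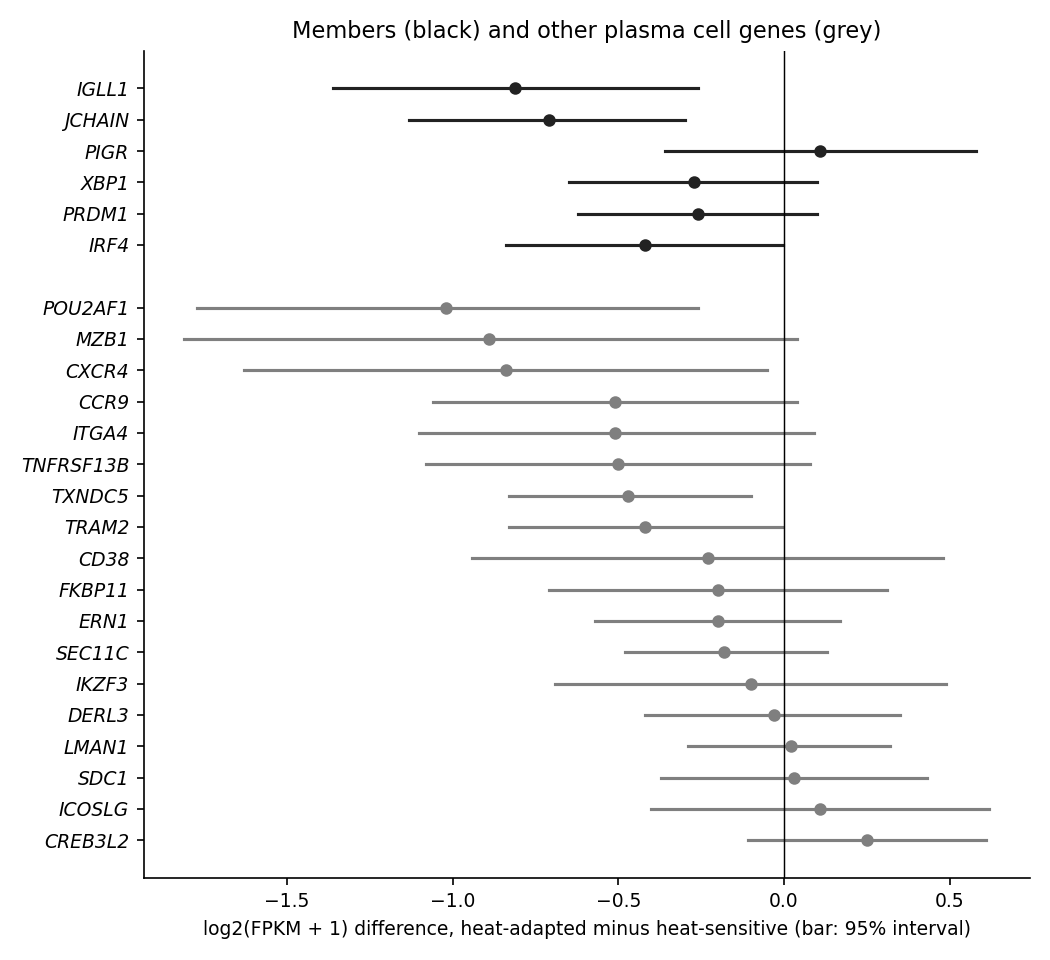
Log2 differences, HA minus HS, with 95% intervals from limma, for the 6 members in black and 18 other plasma cell genes in grey. The intervals of IGLL1 (-1.36 to -0.26) and JCHAIN (-1.13 to -0.3) lie below 0, and that of PIGR (-0.36 to 0.58) spans 0. None passes after adjustment over all tested genes.

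Genes that fold and export secreted proteins in the endoplasmic reticulum, which plasma cells share with epithelium, were mixed. Of 45 tested, 32 had a log2 difference below 0, with a median of -0.16, and none passed. With TPM scaling the median was -0.03. Without overlap of the groups, 14 were lower in HA libraries and 2 higher, against 12.9% lower and 9.0% higher over all tested genes. KDELR3, which returns chaperones to the endoplasmic reticulum, was at 8.87, 8.73 and 9.18 FPKM in HA and 14.1, 16.8 and 17.8 FPKM in HS libraries. It had the lowest adjusted p of the list (log2 difference -0.79, limma adjusted p = 0.0701). The chaperone ERP29 was at 71.9 to 104 FPKM in HA and 121 to 150 FPKM in HS libraries (limma adjusted p = 0.111).

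PRDX4, a peroxidase that forms disulfides, was at 61.5 to 84.1 FPKM in HA and 98.3 to 114 FPKM in HS libraries (limma adjusted p = 0.122). PDIA6, a disulfide isomerase, was at 73.3 to 94.7 FPKM in HA and 113 to 134 FPKM in HS libraries (limma adjusted p = 0.152). The 2 genes higher without overlap, named after their values were seen, were P4HB, a disulfide isomerase, at 501 to 674 FPKM in HA and 314 to 499.7 FPKM in HS libraries, and the translocon subunit SEC61A1. SEC61A1 was at 75.8 to 106 FPKM in HA and 66.6 to 73.6 FPKM in HS libraries. The chaperone HSPA5, which binds unfolded antibody heavy chains, also named after its values were seen, was at 306 to 486 FPKM in HA and 440.6 to 782 FPKM in HS libraries, with its peak in HS replicate 2 as for XBP1.

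Genes of B cells before the plasma cell stage were mostly highest in HS replicate 1. Of 27 listed, 18 were tested, 14 of them had a log2 difference below 0 and none passed. Their median was -0.45, and it was -0.11 without HS replicate 1, where 11 of the 18 genes peaked. This peak was not shared by the whole list. CIITA was at 21.4, 22.2 and 19.4 FPKM in HS replicates 1 to 3, and IRF8 at 140, 106 and 160 FPKM. The surface protein CD72 was 10.1 times as high in HS replicate 1 as in the mean of the other HS libraries. The B cell identity factor PAX5 was 8.01 times as high, and both were named after their values were seen. For CD79B, CXCR5 and TNFRSF13C of the same list this quotient was 3.53, 4.0 and 4.1. Among the members the same quotient was 1.1 for IGLL1, 1.21 for JCHAIN, 1.15 for PRDM1, 1.54 for IRF4, 0.804 for XBP1 and 0.716 for PIGR. It was 2.49 for POU2AF1 and 1.74 for MZB1, both of them plasma cell genes outside the members. Of the genes named by p, BCL6, a repressor that opposes PRDM1, was at 11.4 to 13.6 FPKM in HA and 17.6 to 22.1 FPKM in HS libraries (log2 difference -0.61, limma adjusted p = 0.112). CIITA, the regulator of MHC class II genes that PRDM1 represses, was at 13.0 to 17.6 FPKM in HA and 19.4 to 22.2 FPKM in HS libraries (limma adjusted p = 0.182). The transcription factor SPI1 and the follicle homing receptor CXCR5 overlapped and had limma adjusted p-values of 0.244 and 0.322.

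Signals that attract plasma cells, keep them alive or direct switching had 10 of 11 tested genes with a log2 difference below 0 (median -0.43), with none passing. The median was -0.28 without HS replicate 1, in which 6 of the 11 peaked. CXCL12, the ligand of CXCR4, was at 2.92, 2.73 and 4.67 FPKM in HA replicates 1 to 3, against 12.1, 8.87 and 7.76 FPKM in HS replicates 1 to 3. The groups did not overlap, with a log2 difference of -1.26 (SE 0.22, limma adjusted p = 0.0701). Without HA replicate 3 it passed (-1.44, limma adjusted p = 0.0448). Without any other single library CXCL12 did not pass (limma adjusted p = 0.085 to 0.183). VCAM1, an adhesion molecule that lymphocytes bind, was at 3.91, 6.59 and 8.02 FPKM in HA and 19.0, 10.9 and 19.7 FPKM in HS libraries (log2 difference -1.29, limma adjusted p = 0.101). CD40LG, the T cell signal for B cell help, was at 16.4 to 23.1 FPKM in HA and 27.3 to 43.1 FPKM in HS libraries (log2 difference -0.85, limma adjusted p = 0.108). MADCAM1, the gut homing address on vessels, overlapped (limma adjusted p = 0.314). IL6 and IL10 were below the filter, at 0.8 FPKM or less in every library.

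Genes that control PIGR or carry vesicles through epithelium lay near 0 in their median. Of 23 tested, 16 had a log2 difference above 0, as did 4835 of all 11587 tested genes. The median of the 23 was 0.06, and none passed. Under 4 of the 17 alternatives this median moved by at least its SD between libraries of a group. RAB25, a GTPase of recycling vesicles in epithelium, was at 15.3 to 19.4 FPKM in HA and 10.3 to 15.0 FPKM in HS libraries, without overlap (log2 difference 0.40, limma adjusted p = 0.262). The related GTPases RAB11A and RAB17 had log2 differences of 0.32 and 0.33 with overlapping groups, and the tethering subunit EXOC3 one of 0.25. Without HS replicate 2 the differences were 0.19 for RAB11A, 0.16 for RAB17 and 0.11 for EXOC3, and without HS replicate 1 that of EXOC3 was 0.44. Without HS replicate 3 that of RAB17 was 0.55. With TPM scaling, which also raised the median of all tested genes, RAB25 had a difference of 0.52 and EXOC3 of 0.37. RAB11A and RAB17 were at 0.45 each. IRF1, which relays interferon signals to PIGR in mammals and was named after its values were seen, was at 159 to 202 FPKM in HA and 164 to 219 FPKM in HS libraries (limma adjusted p = 0.979).

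Marker lists of other cells also differed in their medians, and their part in the antibody results was not tested. T and natural killer cell markers had a median log2 difference of -0.26, with 16 of 19 tested below 0, and of -0.16 without HS replicate 1. They summed to 864 to 1293 FPKM in HA and 865 to 1409 FPKM in HS libraries. Of these, CTLA4, a brake on T cells, had the smallest p (log2 difference -0.96, limma adjusted p = 0.0755). Macrophage and granulocyte markers had a median of -0.29 with 10 of 14 below 0, endothelium markers of -0.34 and fibroblast markers of -0.44, each of the last 2 with 10 of 10 below 0. Without HS replicate 2 the medians were -0.21 for endothelium and -0.23 for fibroblast markers, and without HS replicate 1 that of macrophage and granulocyte markers was -0.17. Smooth muscle markers were below 0 in 10 of 10, with a median of -1.16. They summed to 245 to 581 FPKM in HA and 615 to 1216 FPKM in HS libraries. With the mean of each gene subtracted, their median level was -1.37, -0.01 and -0.37 in HA replicates 1 to 3. It was -0.04, 0.90 and 0.66 in HS replicates 1 to 3, so HA replicate 2 did not lie below HS replicate 1. Without HA replicate 1 the difference of CSRP1, the smooth muscle marker of smallest p, was -0.85 rather than -1.12. Cell division genes were below 0 in 23 of 23 tested, with a median of -0.90, and 19 of 23 were lower without overlap, against 12.9% of all tested genes. PLK1, a kinase of mitosis, had the smallest p of all lists (log2 difference -1.07, limma adjusted p = 0.0537). It passed without HA replicate 3 (limma adjusted p = 0.0372), but not without any other single library (0.085 to 0.153). The division genes summed to 232 to 345 FPKM in HA and 494 to 579 FPKM in HS libraries. Red cell markers had 3 tested genes, 2 of them below 0. In the fit as reported, with all 6 libraries, no gene of these lists passed. Under other processing of all 6 libraries some did. With TPM scaling PLK1 and CDK1 passed (limma adjusted p = 0.0465 each), and with quantile normalization PLK1 (0.0471). Some smooth muscle markers passed with the replicate number as a block.

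**Figure D4:**
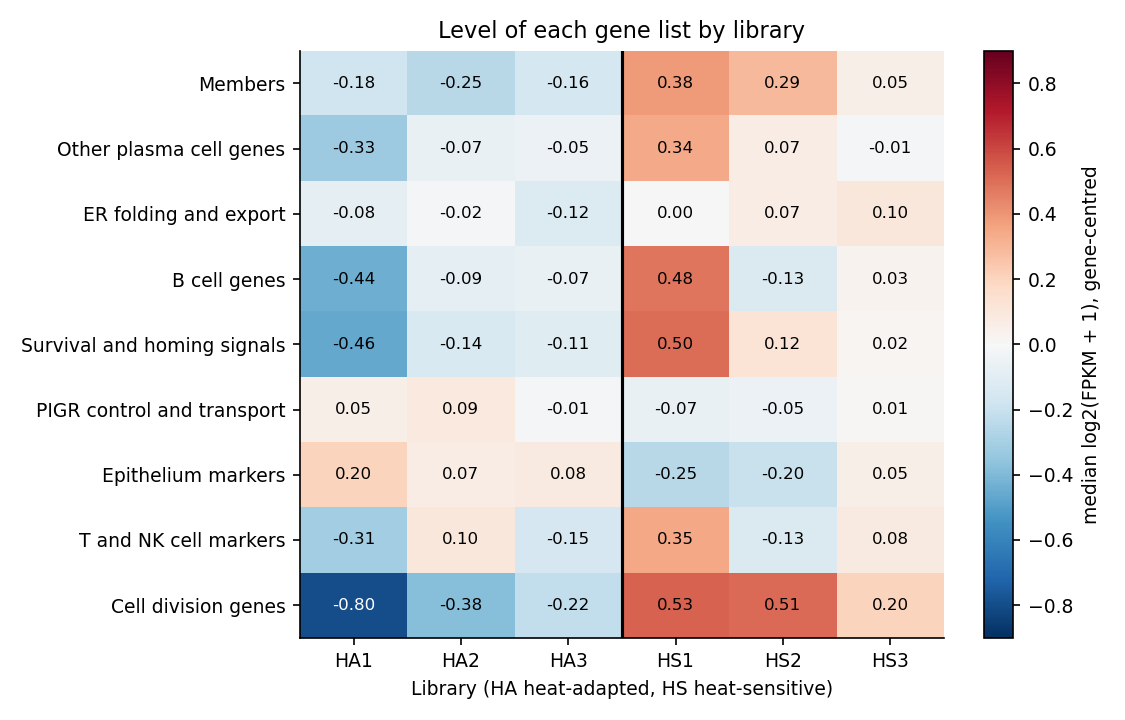
Median of log2(FPKM + 1) over the tested genes of each list shown, with the 6-library mean of each gene subtracted and HA libraries on the left. Lists of macrophages and granulocytes, smooth muscle, endothelium, fibroblasts and red cells are not drawn. ER stands for endoplasmic reticulum and NK for natural killer. B cell genes are highest in HS1 (0.48) and at -0.13 and 0.03 in the other HS libraries, whereas cell division genes run from -0.80 to -0.22 in HA and from 0.20 to 0.53 in HS libraries.

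The tested genes most like each member over the 6 libraries were found by Pearson's r of log2(FPKM + 1), leaving out other members and LOC symbols. For IGLL1 they were ASF1A (r = 0.994), SPC25 (0.991) and CENPP (0.989). SPC25 was at 9.67, 6.80 and 12.5 FPKM in HA and 24.5, 23.3 and 22.2 FPKM in HS libraries, the same order of libraries within the HA group as for IGLL1. For JCHAIN they were HABP4 (r = 0.998), MGMT (0.993) and CENPC (0.992), for PIGR PIGF (0.980), SRPRB (0.972) and AKR1D1 (0.969), and for PRDM1 DAPK1 (0.970), LEKR1 (0.968) and KLHDC10 (0.962). For IRF4 they were NDUFAF7 (r = 0.994), BOK (0.993) and NUP160 (0.993). For XBP1 they were the heat shock genes HSPA4L (r = 0.993) and HSPH1 (0.985), and VASH1 (0.983). HSPH1 was at 23.8, 32.2 and 12.2 FPKM in HA and 28.7, 149 and 36.4 FPKM in HS libraries, with its peak in HS replicate 2 like XBP1. These values of r were the highest among 11587 genes over 6 libraries that share the group difference, and are given as a description.

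**Figure D5:**
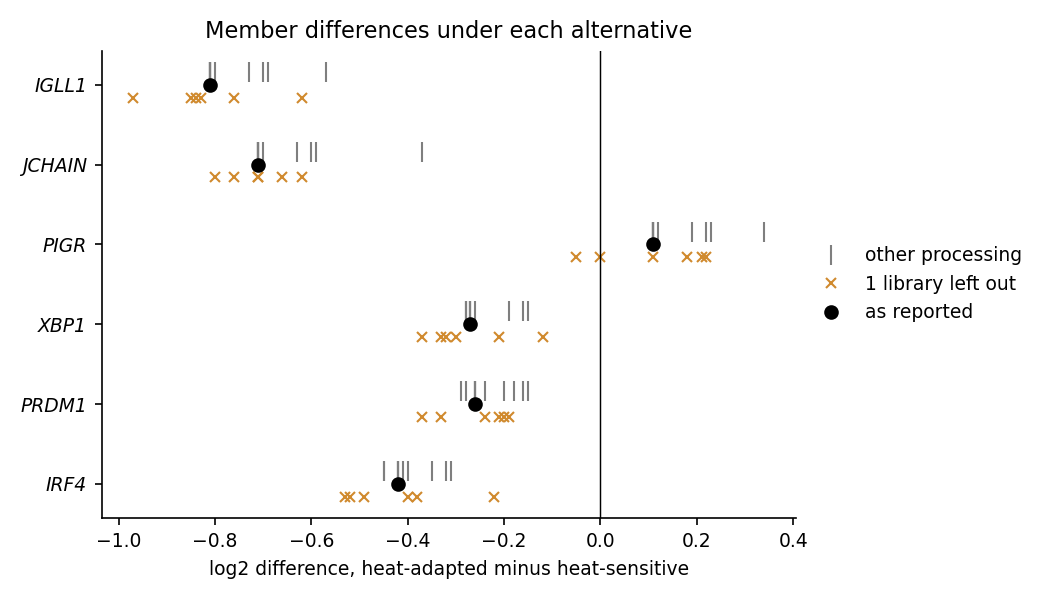
Log2 difference of each member, HA minus HS, as reported (black), with 1 library left out (crosses) and under other processing (ticks). IGLL1 runs from -0.97 to -0.57 and JCHAIN from -0.80 to -0.37, both below 0 throughout, and PIGR runs from -0.05 to 0.34.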

How the data were processed

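The tools named in the submitters' processing notes are HISAT2 2.0.1, cutadapt 1.9.1, DESeq2 and HTSeq 0.6.1, with build GRCg6a. No source used here gives their settings, the strand setting or the handling of shared reads. The authors deposited FPKM values, rounded to 2 decimals, beside gene symbols. They also deposited read counts, treated as estimated counts because 13.2% to 13.7% of them are not whole; these 6 columns served only for totals and for the check of row order, in which the 2 kinds of values of a row were unrelated (Spearman's rho of the means -0.0049). No count test was therefore run. Rows whose symbol had become a date (19) were left out.

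Log2(FPKM + 1) was fitted with limma 3.58.1 in R 4.3.3, with trend and robust empirical Bayes, without a block, where the mean FPKM was 1 or more; p-values are 2-sided with Benjamini-Hochberg adjustment. The fit was also run on simulated data with independent noise for each gene. Such data hold no shifts of many genes in 1 library, so the run gives no error rate under such shifts. Ratios were compared by exact permutation. The depth behind single FPKM values is unknown, and no molecular identifiers are mentioned, so PCR copies are counted.

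The members and lists were chosen with earlier results of these data known. Genes were to be named by rule: all members, of each other list any gene past the threshold and the 4 of smallest p, and the 3 genes most like each member. The marker lists of other cells are given mainly by counts and sums. RefSeq's table of assembly GRCg7b gave only names and positions of genes, matching 13838 symbols directly, 279 as synonyms and 1539 not at all. It holds no gene descriptions, so immunoglobulin genes were sought by symbol. RNA was selected by poly(A) isolation or rRNA removal, per the labels' protocols, which do not say which was used for which library.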

Additional observations from a re-analysis of the deposited data

How the results depend on the processing

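No member passed the threshold under any of the 17 alternatives, where adjusted p-values from limma reached down to 0.0815 for IGLL1 and 0.0931 for JCHAIN, both without heat-adapted replicate 3. Differences ranged from -0.97 to -0.57 for IGLL1, -0.80 to -0.37 for JCHAIN, -0.53 to -0.22 for IRF4, -0.37 to -0.15 for PRDM1 and -0.37 to -0.12 for XBP1. PIGR turned sign without heat-adapted replicate 1 (-0.00078) and without heat-sensitive replicate 1 (-0.05), and reached 0.22 without heat-adapted replicate 3 and 0.34 with quantile normalization, which also gave the smallest difference for JCHAIN (-0.37); the cause was not tested. TPM scaling moved the median of all genes from -0.06 to 0.05, and gave -0.69 for IGLL1, -0.59 for JCHAIN and a median of -0.03 for the folding and export genes. Leaving out 1 library, the difference of the JCHAIN to IGLL1 ratio ran from -0.05 (without heat-adapted replicate 2) to 0.20, that of PIGR to JCHAIN from 0.57 to 0.98, and that of PIGR to epithelial markers from -0.28 to 0.0098 (without heat-sensitive replicate 2). Of all tested genes, 11 passed as reported, 17 with a pseudocount of 0.1, 7 with no filter, 7 at a mean FPKM of at least 5, 38 with TPM, 20 with median-of-ratios and 20 with upper-quartile scaling, 35 when rescaled without the 21 most abundant genes, and 6 to 64 with 1 library left out. Cell division genes passing numbered 0 as reported, 2 with TPM, 1 each with median-of-ratios, quantile and upper-quartile scaling, 3 when rescaled without the most abundant genes, and 0 to 6 with 1 library left out. Of the survival and homing signals 0 to 1 passed with 1 library left out. With the replicate number as a block, 46 genes passed, 5 of them smooth muscle markers, and none was a member (IGLL1 adjusted p = 0.302, JCHAIN 0.242). Deviations of same-numbered libraries correlated at -0.161, 0.11 and -0.191, and not every library correlated best with its own number. The deviations were taken from the mean of each group of 3 libraries, which ties them to each other. This check therefore cannot settle whether the numbers pair the libraries. The read depth behind low FPKM values is unknown, so no counting error can be given for them.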

Other observations

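Genes next to the members in the GRCg7b reference are given here, chosen after their values were seen. Over all tested genes, 21.9% did not overlap between the groups, 12.9% as lower and 9.0% as higher in heat-adapted libraries. VPREB3, a gene of developing B cells, lies close to IGLL1. It was at 1.53, 3.41 and 3.57 FPKM in heat-adapted replicates 1 to 3, and at 55.2, 3.53 and 10.5 FPKM in heat-sensitive replicates 1 to 3. The value of heat-sensitive replicate 1 was 7.88 times the mean of the other heat-sensitive libraries, against 1.1 times for IGLL1. DGCR2 on the other side of IGLL1 overlapped, at 18.9 to 24.5 FPKM in heat-adapted and 21.3 to 23.8 FPKM in heat-sensitive libraries (log2 difference -0.05, limma adjusted p = 0.895). Beside JCHAIN, SDAD1, UTP3 and RUFY3 had log2 differences of -0.06, -0.14 and -0.24 with overlapping groups. Beside XBP1, CCDC117 was at 8.80 to 9.80 FPKM in heat-adapted and 11.6 to 18.0 FPKM in heat-sensitive libraries (log2 difference -0.51, limma adjusted p = 0.205), and SLC2A11L5 was also lower without overlap (-0.34, limma adjusted p = 0.287). Beside IRF4, NQO2 was higher without overlap, at 16.7 to 24.3 FPKM in heat-adapted and 12.7 to 15.2 FPKM in heat-sensitive libraries (log2 difference 0.41, limma adjusted p = 0.254), while DUSP22 and FOXQ1 overlapped (0.58 and 0.53). Beside PRDM1, the tested neighbours ATG5, AIM1 and PREP overlapped. So did VPS29L beside IGLL1 (log2 difference 0.16), LOC422643 beside JCHAIN (0.15), ZNRF3 beside XBP1 (-0.23) and EXOC2 beside IRF4 (-0.01).

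IGHVL, which RefSeq lists as a synonym of a locus also called TCRalpha, so that its class of receptor is uncertain here, was at 96.4, 113 and 103 FPKM in heat-adapted replicates 1 to 3. It was at 176, 132 and 127 FPKM in heat-sensitive replicates 1 to 3, without overlap of the groups (log2 difference -0.46, limma adjusted p = 0.207).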
